A study of Mus musculus with 6 samples.

Results

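The xenobiotic enzymes examined here are the members of 6 mouse gene families that modify foreign chemicals, drugs, steroids and reactive aldehydes: cytochromes P450 (Cyp), aldehyde dehydrogenases (Aldh), aldo-keto reductases (Akr), glutathione S-transferases (Gst), UDP-glucuronosyltransferases (Ugt) and cytosolic sulfotransferases (Sult). A member was taken by its symbol, with a mean of at least 10 normalised reads over the 6 libraries. Of 105 family rows, 78 became members, 24 lay below that mean and 3 (Aldh1a1, Aldh1a3 and Cyp51) were left out by name. The members comprised 22 Cyp, 13 Aldh, 11 Akr, 15 Gst, 12 Ugt and 5 Sult genes, of 12568 genes with that mean and 14526 in the table. RNA had been sequenced from NMuMG, an established mouse mammary gland epithelial line used as a model of the change from epithelial to mesenchymal form under TGF-beta. All 6 samples were taken on day 4 of TGF-beta, so no comparison with untreated cells was made here. They were transfected, when TGF-beta was first given and again with fresh TGF-beta and medium on day 2, with a non-targeting siRNA (siNTC, n = 3) or with siRNA against Mnt (siMnt, n = 3). No label states whether replicates came from separate cultures, and p-values here therefore cover only the spread among these 6 samples, which can be technical.

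Foreign chemicals are commonly cleared in steps. Phase I enzymes oxidise, reduce or hydrolyse a compound, as P450s, aldehyde dehydrogenases and aldo-keto reductases do, and phase II enzymes join the product to glutathione, glucuronic acid or sulfate so that it can be exported. Liver and gut hold the highest levels of most of them, while other epithelia, the mammary gland included, express a smaller set, and the receptors Ahr, Pxr and Car and the factor Nrf2 are the best known regulators of their genes. Mnt, with its partner Max, represses from the E-box CACGTG, the same site that Myc with Max occupies.

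Values are normalised reads, that is read counts divided by 1 size factor per library, and a triplet against a triplet gives siNTC replicates 1, 2 and 3 against siMnt replicates 1, 2 and 3. Mnt itself, the targeted gene, was at 1316, 896 and 1596 in siNTC replicates 1, 2 and 3 and 613, 557 and 749 in the siMnt libraries. The siMnt mean was 50.4% of the siNTC mean and the groups did not overlap. The exact two-sided permutation test gave p = 0.1, the smallest that 3 against 3 allows, and the fit across all genes with limma gave an adjusted p of 0.0546. A fit that also held a term for the replicate number, called the blocked fit below, gave 0.00442. Recovered reads numbered 24767602 to 42193291 in the siNTC libraries and 22323050 to 25666005 in the siMnt libraries. Along the first principal component (60.8% of variance) siNTC replicate 3 lay at -0.81, between the other siNTC libraries (-43.0 and -52.3) and the siMnt libraries (29.4 to 35.5). By mean chi-square per gene between recovered reads, which also grows with depth, siNTC replicates 1 and 3 were the closest siNTC pair (74.8). Replicates 1 and 2 of siNTC gave 92.4, replicates 2 and 3 gave 176, and the siMnt pairs gave 14.5 to 28.2. The epithelial keratin Krt8 was at 30725 to 41841 and Krt18 at 43433 to 75987 normalised reads over the 6 libraries, while the mammary markers Elf5 and Csn3 stayed at or below 7.75.

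With Mnt depleted, 11 of the 78 xenobiotic enzymes rose and 0 fell at an adjusted p under 0.05 (limma, 12568 genes tested). Those that rose were the aldehyde dehydrogenases Aldh1a7, Aldh3a1 and Aldh6a1, the aldo-keto reductase Akr1c14, the P450s Cyp2s1, Cyp39a1 and Cyp2c23, the glucuronosyltransferases Ugt2b35, Ugt1a6a and Ugt1a9, and the sulfotransferase Sult1c2. Their log2 fold changes, fitted on log2(normalised reads + 1) and given with their SE, ran from 0.87 (Cyp2c23) to 3.10 (Aldh1a7), and in each of them all siMnt libraries lay above all siNTC libraries. The table comes from bulk RNA. A change in the number of cells of a type and a change in RNA per cell cannot be told apart in any of these values.

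The 11 that rose were 14.1% of the members. Of all tested genes 3.93% passed, 2.56% higher and 1.37% lower. At an unadjusted p under 0.05 there were 34 members higher and 6 lower, beside 12.7% and 10.7% of all genes. In edgeR 9 were higher and 0 lower (2.29% and 1.25% of all genes, 3.54% in all), and in DESeq2 23 were higher and 2 lower (6.71% and 4.89%, 11.6% in all). The median log2 fold change was 0.67 over the members (0.45 in edgeR and 0.46 in DESeq2) and -0.01 over all tested genes. In limma 59 members, or 75.6%, had a value above 0 beside 48.6% of all tested genes. In 3 members, Cyp2c68, Cyp4a12a and Ugt1a2, the group means differed in the other direction than this fitted value. In 30 members (38.5%, beside 15.6% of all genes) all siMnt libraries were above all siNTC libraries, and in 8 (10.3%, beside 15.9%) all were below. A log2 fold change of at least 1 was seen in 25 members (32.1%, beside 5.18% of all genes) and one of -1 or less in 1 member, Cyp4f18 (17.5, 17.7 and 18.7 against 7.57, 7.16 and 11; 2.07% of all genes). By family, passing members numbered 3 of 22 Cyp, 3 of 13 Aldh, 1 of 11 Akr, 0 of 15 Gst, 3 of 12 Ugt and 1 of 5 Sult genes. The families ranked differently by median log2 fold change. It was 0.07 in Akr, 0.24 in Cyp, 0.26 in Aldh, 0.81 in Gst, 1.05 in Ugt and 1.72 in Sult. Family medians were taken on the log2(normalised reads + 1) scale and not in edgeR. Members with few reads differed between these fits, as in Sult1a1 (2.26 against 1.23 in edgeR) and Ugt1a9 (1.69 against 1.78). Without siNTC replicate 3 these medians were 0.07 in Akr, 0.53 in Cyp, 0.40 in Aldh, 1.13 in Gst, 1.48 in Ugt and 2.15 in Sult, so that Cyp and Aldh changed places.

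**Figure D1:**
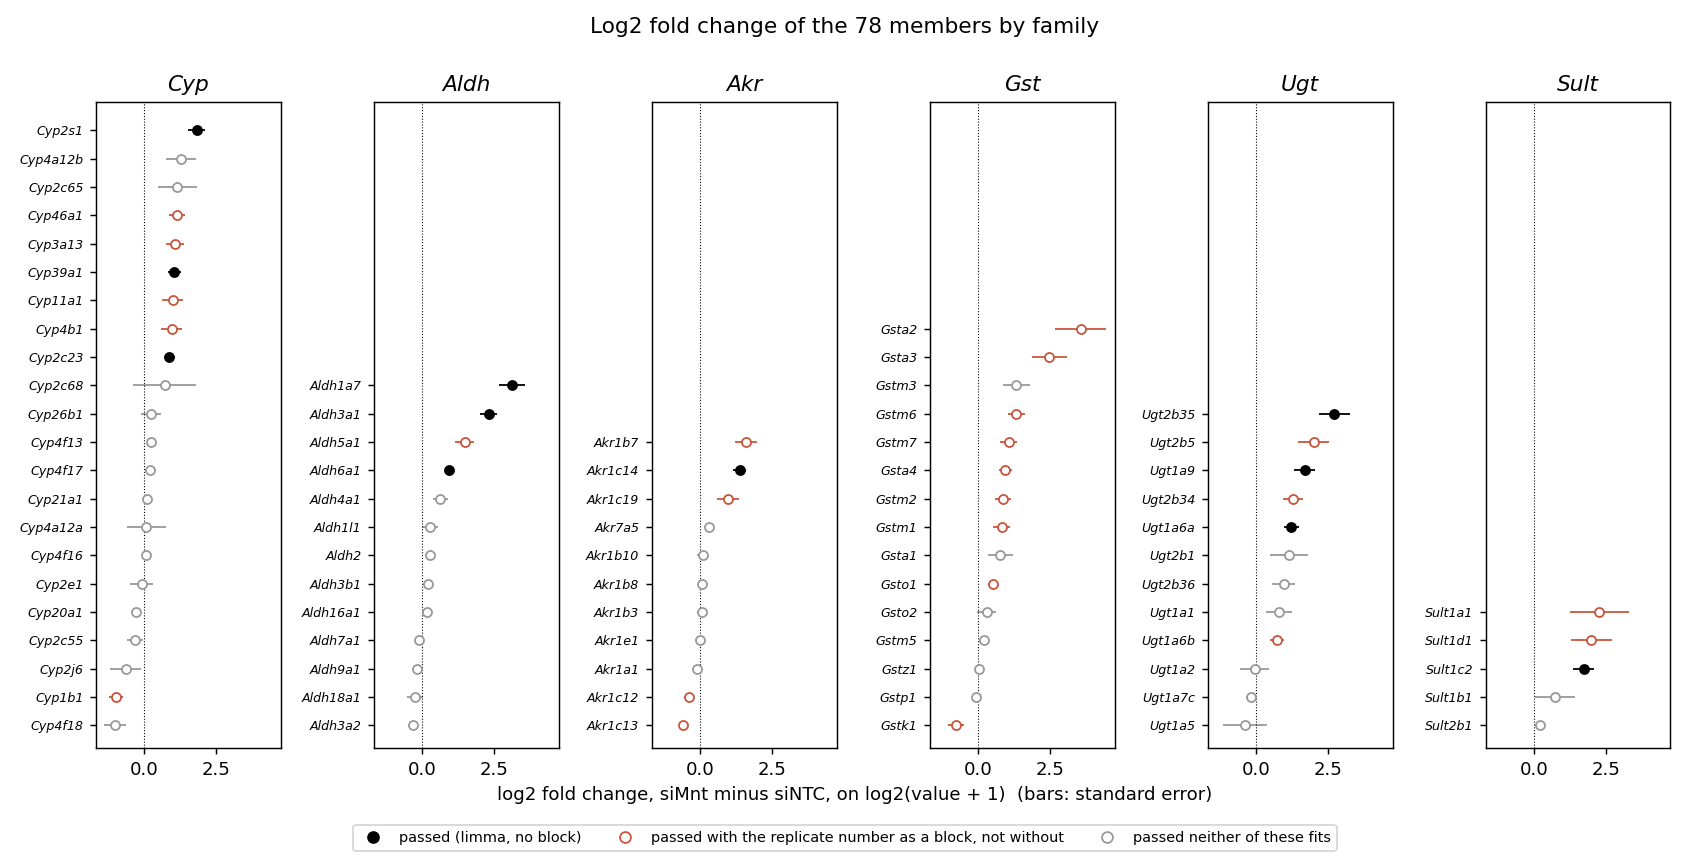
Log2 fold change, siMnt against siNTC, of each of the 78 members by family, on the log2(normalised reads + 1) scale, with black points for the 11 that passed in limma, orange ones for those that passed with the block and not without it, grey ones for those that passed neither of these fits, and bars for the standard error. The medians of Gst, Ugt and Sult (0.81, 1.05 and 1.72) lie above those of Cyp, Aldh and Akr (0.24, 0.26 and 0.07), and the point farthest to the right, Gsta2 (3.55), did not pass without the block.

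In the blocked fit 31 members were higher and 4 lower, beside 9.33% and 6.56% of all genes, 15.9% in all. By family these were 7 higher and 1 lower in Cyp, 4 and 0 in Aldh, 3 and 2 in Akr, 8 and 1 in Gst, 6 and 0 in Ugt, and 3 and 0 in Sult. Without siNTC replicate 3 there were 35 higher and 2 lower, beside 9.51% and 6.5%. With values corrected for length and GC content of the transcripts 16 were higher and 0 lower (4.86% and 3.16% of all genes), with the block and that correction 29 and 4 (10.6% and 8.14%), and with sample weights 44 and 6 (18.0% and 17.1%). The weights were 4.18, 0.20 and 0.40 for siNTC replicates 1, 2 and 3 and 1.06 to 2.05 for the siMnt libraries. The siNTC side of that weighted fit thus rested mostly on replicate 1. Calls were fewer without other libraries: 4 members without siNTC replicate 2 (Akr1c14, Aldh1a7, Aldh3a1 and Aldh6a1, all higher, beside 1.11% of all genes higher and 0.621% lower), 3 without siMnt replicate 3 (Akr1c14, Aldh1a7 and Aldh3a1, all higher, beside 0.629% higher and 0.366% lower), and 0 when siNTC replicate 1 or either of siMnt replicates 1 and 2 was left out. The 7 others of the 11 passed with no library left out except siNTC replicate 3. In the 3 fits with 0 members limma and edgeR called 0 of all tested genes, DESeq2 called 18, 11 and 12 members in either direction (5.65%, 3.56% and 4.41% of all genes), and 32, 30 and 27 members had an unadjusted p under 0.05 in limma (17.4%, 14.4% and 15.3%).

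**Figure D2:**
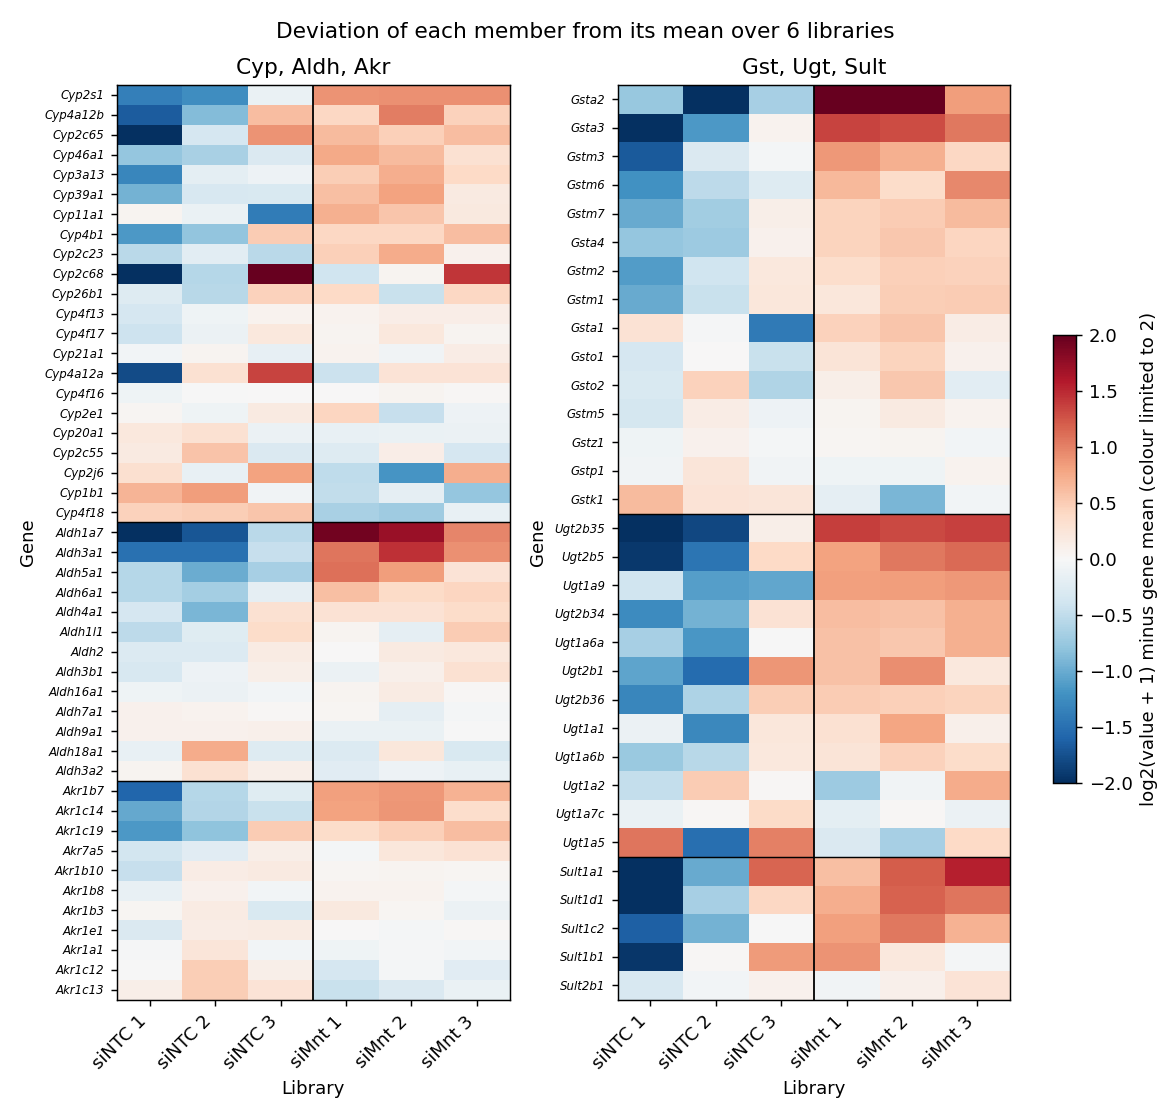
Deviation of log2(normalised reads + 1) from each member's mean over the 6 libraries, with 1 row per member, grouped by family, 1 column per library and the colour scale ending at 2. In 53 of the 78 members siNTC replicate 3 is the highest of the siNTC libraries, beside 33.8% of all tested genes.

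Among the siNTC libraries, replicate 3 held the highest value in 53 members (67.9%), beside 33.8% of all tested genes. It lay between the other siNTC libraries and the siMnt libraries in 28 members (35.9%), beside 20.1% of all genes. Within replicate numbers the median log2 difference over the members was 0.64 for number 1, 0.59 for number 2 and 0.15 for number 3. The summed normalised reads of all members were 67410.1, 83424 and 84941 in the siNTC libraries and 94907, 104005 and 95849 in the siMnt libraries. The part of siNTC replicate 3 in these results was not tested beyond the fit without it.

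Promoters from RefSeq (GRCm38.p6) were matched for 66 of the 78 members and 8 of the 11 that rose, each read over the 250 bases before the start site. Of 32851 such windows in the table, 6.02% held the E-box CACGTG on either strand, and of 76 member windows 3 did, those of Aldh18a1, Aldh3a2 and Cyp2j6, none of which passed. The related E-box CACGCG was in 7.62% of all windows and 6.58% of member windows, those of 5 members. The core of the Ahr response element, GCGTG, also lies within CACGCG read on the other strand. It was in 28.2% of all windows and 25.0% of member windows, those of 18 members. The antioxidant response element TGACNNNGC was in 10.2% of all windows and 6.58% of member windows, those of 5 members. Each of these 4 motifs was found in 0 of the 8 matched members that rose, which says only that these letters are not in those windows. Of the 5 windows shown, those of Aldh1a7 (chr19:20727557-20727806, minus strand) and Ugt2b35 (chr5:87000610-87000859, plus strand) belong to the aldehyde dehydrogenase and the glucuronosyltransferase with the largest fold changes among the members that rose. That of Ugt1a6a (chr1:88134559-88134808, plus strand) lies before an alternative first exon of a locus described further on. Cyp1b1 (chr17:79715062-79715311, minus strand) is the most read P450 whose siMnt libraries all lay below its siNTC libraries, and Gsta3 (chr1:21240335-21240584, plus strand) is shown for its match. The windows are printed 5′ to 3′ on the gene's strand, and capitals mark a GCGTG match in Cyp1b1 (read on the other strand) and a TGACNNNGC match in Gsta3, while the other 3 hold no match.
Aldh1a7: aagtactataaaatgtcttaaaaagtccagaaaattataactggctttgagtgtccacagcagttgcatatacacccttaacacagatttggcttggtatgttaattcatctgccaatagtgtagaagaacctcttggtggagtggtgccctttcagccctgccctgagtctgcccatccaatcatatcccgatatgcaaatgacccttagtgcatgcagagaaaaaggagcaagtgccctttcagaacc
Ugt2b35: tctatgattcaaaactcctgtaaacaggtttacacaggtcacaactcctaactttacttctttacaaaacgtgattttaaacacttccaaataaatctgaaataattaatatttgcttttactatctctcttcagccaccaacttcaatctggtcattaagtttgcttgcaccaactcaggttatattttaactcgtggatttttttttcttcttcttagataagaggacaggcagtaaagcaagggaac
Ugt1a6a: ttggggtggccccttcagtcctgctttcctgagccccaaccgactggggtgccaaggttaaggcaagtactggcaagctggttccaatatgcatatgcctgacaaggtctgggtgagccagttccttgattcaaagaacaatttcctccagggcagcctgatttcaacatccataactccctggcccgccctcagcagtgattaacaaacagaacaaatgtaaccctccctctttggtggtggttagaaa
Cyp1b1: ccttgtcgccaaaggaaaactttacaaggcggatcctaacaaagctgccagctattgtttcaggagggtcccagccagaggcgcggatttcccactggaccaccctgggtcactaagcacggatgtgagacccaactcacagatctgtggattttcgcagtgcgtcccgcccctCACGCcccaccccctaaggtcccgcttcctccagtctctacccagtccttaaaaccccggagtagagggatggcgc
Gsta3: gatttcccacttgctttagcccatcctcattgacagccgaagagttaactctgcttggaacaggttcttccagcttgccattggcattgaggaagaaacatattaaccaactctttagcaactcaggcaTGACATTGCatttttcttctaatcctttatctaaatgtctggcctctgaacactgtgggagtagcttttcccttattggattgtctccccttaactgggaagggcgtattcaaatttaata

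Of the phase I families, aldehyde dehydrogenases, which oxidise aldehydes to acids, held the largest rise of the 11. Aldh1a7, a close relative of the retinaldehyde dehydrogenase Aldh1a1 with which it shares 7.49% of its 50-base words, was at 48.9, 79.8 and 182 in siNTC replicates 1, 2 and 3 and 1009.9, 878 and 522 in the siMnt libraries. Every siMnt library exceeded the highest siNTC library, replicate 3, by more than the whole siNTC range, and the log2 fold change was 3.10 ± 0.46 (SE; adjusted p = 0.0206). Aldh1a1 itself, left out by name, was at 150.2, 261 and 503 against 3781, 3299 and 1952. The sources used here do not say how reads in shared sequence were counted. Their part in the Aldh1a7 values was not tested. Aldh3a1 clears aldehydes of lipid peroxidation and is abundant in cornea. It was at 93.5, 94.2 and 193 in siNTC replicates 1, 2 and 3 and 558, 734 and 505 in the siMnt libraries. The groups were again apart, with siNTC replicate 3 above the other siNTC libraries, and the log2 fold change was 2.30 ± 0.30 (adjusted p = 0.0167). Aldh6a1, the mitochondrial methylmalonate semialdehyde dehydrogenase of valine breakdown, was at 748, 694 and 985 against 1693, 1452 and 1493. It rose from a mean of 809 ± 154 to 1546 ± 129 (SD, n = 3 each), without overlap, a log2 fold change of 0.95 ± 0.16 (adjusted p = 0.0264).

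The other 10 Aldh genes did not pass in limma. Aldh5a1, the succinic semialdehyde dehydrogenase of GABA breakdown, had few reads, 16.6, 12.2 and 15.5 against 55.1, 45.3 and 30.6, with adjusted p = 0.0522 in limma, 0.0498 in edgeR and 0.0231 with the block. Aldh18a1, which makes the proline precursor pyrroline-5-carboxylate, held the most reads of the family and had overlapping groups, 4525, 8372 and 4195 against 4127, 5838 and 4065. Its siNTC replicate 2 stood above the other siNTC libraries, and the log2 fold change was -0.23 ± 0.27 with all libraries (adjusted p = 0.648). Aldh4a1, which oxidises that same intermediate towards glutamate, was at 2236, 1503 and 3486 against 3451, 3438 and 3639, so siNTC replicate 3 was level with the siMnt libraries, and it shares 35.5% of its 50-base words with other genes (log2 fold change 0.63 ± 0.27, adjusted p = 0.205). The fatty aldehyde dehydrogenase Aldh3a2 had lower values in all siMnt libraries, 2737, 3251 and 2866 against 2265, 2470.0 and 2387, and did not pass (adjusted p = 0.154, 0.0711 with the block). The 6 others, Aldh2, Aldh1l1, Aldh3b1, Aldh16a1, Aldh7a1 and Aldh9a1, had log2 fold changes from -0.18 to 0.26.

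Among aldo-keto reductases, which reduce carbonyl groups of sugars, steroids and xenobiotics, Akr1c14 rose. This 3-alpha-hydroxysteroid dehydrogenase was at 172, 234 and 258 in siNTC replicates 1, 2 and 3 and 613, 649 and 449.7 in the siMnt libraries, with no overlap and a log2 fold change of 1.37 ± 0.21 (adjusted p = 0.0239). Its neighbours on the chromosome did not follow one direction. Akr1c13 was at 2029, 2634 and 2266 in siNTC replicates 1, 2 and 3 and 1371, 1527 and 1713 in the siMnt libraries, lower in all siMnt libraries, with a log2 fold change of -0.58 ± 0.14 and an adjusted p of 0.0621, or 0.014 with the block. Akr1c12 had a log2 fold change of -0.40 and adjusted p of 0.193 without and 0.0495 with the block. These last 2 share 28.6% of their 50-base words with other genes, so reads could have been split between them, and the sources used here do not say how multiply mapped reads were counted. Akr1c19 was at 355, 451 and 1118 against 1015, 1095 and 1212, with siNTC replicate 3 inside the siMnt range (adjusted p = 0.171, 0.028 with the block). The fifth gene of the cluster, Akr1e1, differed by a log2 fold change of -0.01 (adjusted p = 0.973).

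The most read members of that family were not among those that passed. Akr1a1, the widely expressed aldehyde reductase, was at 10178, 12159 and 9991 against 9699.9, 10164 and 9967 with overlapping groups and a log2 fold change of -0.11 ± 0.12 (adjusted p = 0.632). Akr1b8, an aldose reductase relative, was at 1846, 2178 and 1963 against 2151, 2143 and 1999, also overlapping (adjusted p = 0.739). Of its chromosomal neighbours, Akr1b3 and Akr1b10 had log2 fold changes of 0.07 and 0.09, while the lowly read Akr1b7 was at 8.73, 18.8 and 23.9 against 50.8, 52.5 and 46.6 with no overlap (adjusted p = 0.0646, 0.023 with the block). Akr7a5 had a log2 fold change of 0.31 with overlapping groups.

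The P450s, haem monooxygenases of the endoplasmic reticulum and mitochondria, held 3 genes that rose. Cyp2s1, expressed mainly in epithelia outside the liver, was at 1012, 1103 and 2371 in siNTC replicates 1, 2 and 3 and 4881, 4902 and 4927 in the siMnt libraries. The siMnt libraries were close together, siNTC replicate 3 exceeded the other siNTC libraries, and the log2 fold change was 1.82 ± 0.29 (adjusted p = 0.0242). Cyp39a1, which hydroxylates 24-hydroxycholesterol on the way to bile acids, was at 959, 1471 and 1495 against 2787, 3218 and 2078, without overlap, and rose by a log2 fold change of 1.05 ± 0.22 (adjusted p = 0.0441). Cyp2c23, an arachidonic acid epoxygenase, was at 478, 601 and 479 against 969, 1171 and 743. Its lowest siMnt library, replicate 3, was above its highest siNTC library, replicate 2, and it rose by a log2 fold change of 0.87 ± 0.19 (adjusted p = 0.049).

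Cyp1b1 had the opposite pattern. This P450, which activates polycyclic aromatic hydrocarbons, hydroxylates oestradiol and is a textbook Ahr target, was at 2749.5, 3079 and 1648 in siNTC replicates 1, 2 and 3 and 1221, 1525 and 1011 in the siMnt libraries. Every siMnt library was below every siNTC library and siNTC replicate 3 was the nearest of them to the siMnt libraries. The log2 fold change was -0.96 ± 0.25, with an adjusted p of 0.0716, which became 0.00408 with the block and 0.00444 without siNTC replicate 3. Ahr itself was at 4481, 3014 and 3782 against 4404, 4156 and 3686, overlapping, with a log2 fold change of 0.13 (adjusted p = 0.663).

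Among the other P450s the block moved 4 across the threshold upward. They were the cholesterol 24-hydroxylase Cyp46a1 (adjusted p = 0.067, 0.0406 with the block), the drug oxidase Cyp3a13 (0.0871 and 0.0172), the cholesterol side-chain cleavage enzyme Cyp11a1 (0.157 and 0.0156) and Cyp4b1 (0.173 and 0.0292). Cyp11a1 was at 354, 310.1 and 129 against 560.1, 501 and 391, the reverse of most members in that siNTC replicate 3 was its lowest library. Cyp4b1, by contrast, held 458, 586 and 1439.9 against 1346, 1353 and 1553, so siNTC replicate 3 lay among the siMnt libraries. The retinoic acid hydroxylase Cyp26b1 (61.1, 49.8 and 101 against 97.3, 53.7 and 98), the steroid 21-hydroxylase Cyp21a1 (300.5, 325 and 278 against 327, 295 and 346) and the ethanol-oxidising Cyp2e1 (12.2, 11.1 and 13.6 against 16.2, 8.35 and 11) each had overlapping groups. Cyp21a1 shares 23.7% of its 50-base words with other genes. The near-identical copies Cyp4a12a and Cyp4a12b, which share 48.9% and 49.4% of their 50-base words with other genes, were at 50.7, 219 and 456 against 132, 215 and 214 and at 97.8, 172 and 482 against 417, 637 and 431 and are uncertain one by one. The groups overlapped in both, and for Cyp4a12a the fitted log2 fold change of 0.08 and the edgeR value of -0.37 differed in sign, as the siMnt mean was the lower one. The rest that passed neither fit were Cyp2c55, Cyp2c65, Cyp2c68, Cyp2j6, Cyp4f13, Cyp4f16, Cyp4f17, Cyp4f18 and Cyp20a1, with log2 fold changes from -1.01 (Cyp4f18) to 1.15 (Cyp2c65).

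In phase II, glucuronosyltransferases of the Ugt2b group, which conjugate steroids and drugs in the endoplasmic reticulum, had log2 fold changes above 0 in each of the 5 tested. Ugt2b35 was at 50.7, 74.2 and 287 in siNTC replicates 1, 2 and 3 and 692, 662 and 687 in the siMnt libraries. The siMnt libraries were close together, siNTC replicate 3 was well above the other siNTC libraries, and the log2 fold change was 2.71 ± 0.55 (adjusted p = 0.0411). Ugt2b5 was at 40.2, 55.4 and 204 against 272, 323 and 341 and Ugt2b34 at 259, 323 and 762 against 960.1, 935 and 1026, both without overlap, with adjusted p of 0.0734 and 0.081, or 0.00967 and 0.0128 with the block. Ugt2b5 shares 41.7% of its 50-base words with other genes. Ugt2b36 was at 189, 305 and 656 against 667, 653 and 639.7, where siNTC replicate 3 fell among the siMnt libraries (adjusted p = 0.188). Ugt2b1, with at most 16.7 normalised reads in any library, did not pass (adjusted p = 0.338).

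The 7 Ugt1a genes are variants of one locus, in which alternative first exons are joined to the same last exons, so reads in the shared part cannot be given to one variant. Ugt1a6a, whose enzyme conjugates simple phenols, was at 579.9, 408 and 913 in siNTC replicates 1, 2 and 3 and 1369.9, 1332 and 1504 in the siMnt libraries, without overlap, and rose by a log2 fold change of 1.22 ± 0.26 (adjusted p = 0.047). Ugt1a9, also without overlap, was near the lower limit, at 9.61, 5.54 and 5.81 against 23.8, 23.9 and 24.5. Those values stood for 5 to 22 recovered reads, and it reached the mean of 10 through the siMnt libraries alone, with 62% of its 50-base words found in other genes (log2 fold change 1.69 ± 0.37, adjusted p = 0.0493). Ugt1a6b was at 882, 1009 and 1713 against 1762, 2029.7 and 1909 (log2 fold change 0.72 ± 0.23, adjusted p = 0.117, 0.0257 with the block). Ugt1a7c, the most read of the locus, was at 3189, 3582 and 4573 against 3077, 3582 and 3239, with overlapping groups (log2 fold change -0.18 ± 0.15, adjusted p = 0.507). Ugt1a1, Ugt1a2 and Ugt1a5, each with at most 50.1 normalised reads in any library, had log2 fold changes of 0.79, -0.04 and -0.38 and did not pass.

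As shares of the summed Ugt1a values, the locus had a different make-up in the 2 groups. Ugt1a7c took 67.7%, 71.2% and 62.9% in siNTC replicates 1, 2 and 3 and 49.0%, 50.9% and 48.1% in the siMnt libraries. Ugt1a6b took 18.7%, 20.04% and 23.6% against 28.1%, 28.9% and 28.3%. Ugt1a6a took 12.3%, 8.10% and 12.6% against 21.8%, 18.9% and 22.3%. None of the 3 shares overlapped between groups, a pattern chosen after the values were seen and given without a test. Between 38.9% (Ugt1a6a) and 80.7% (Ugt1a6b) of the 50-base words of these 3 transcripts recur in other genes, so the shares depend on a counting rule that the sources used here do not state.

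**Figure D3:**
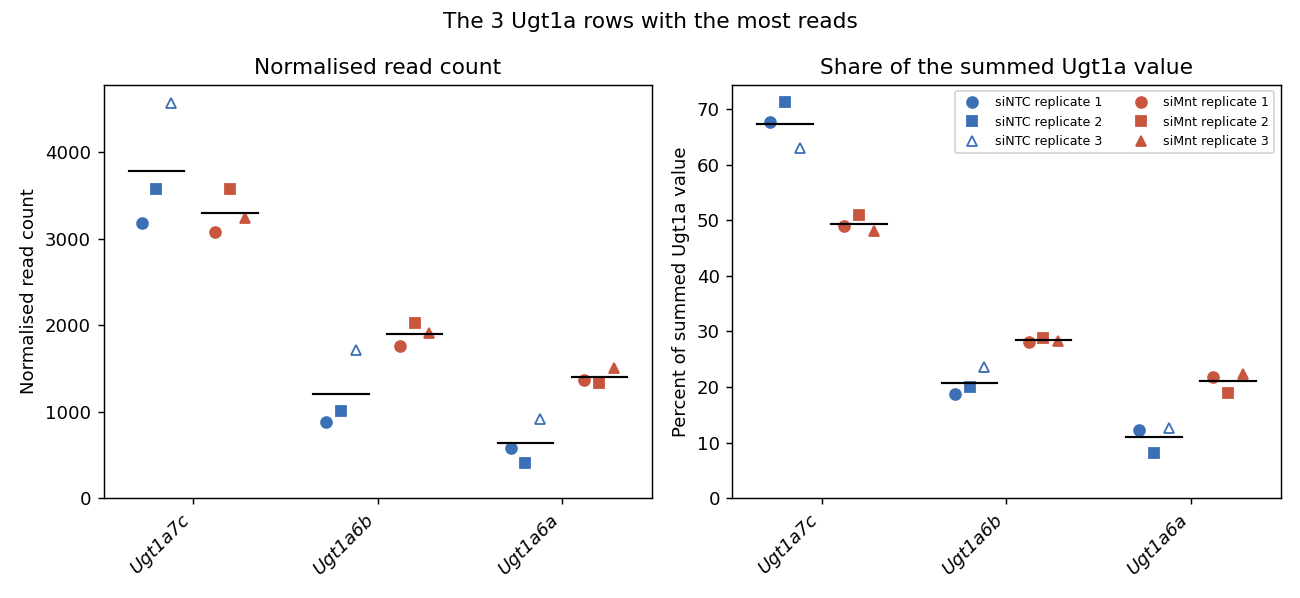
Normalised reads (left) of the 3 most read Ugt1a variants in each library and their shares of the summed Ugt1a value in percent (right), with a line at each group's mean. The Ugt1a7c share lies between 62.9% and 71.2% in the siNTC libraries and between 48.1% and 50.9% in the siMnt libraries, while the Ugt1a6a share goes from 8.10% to 12.6% up to 18.9% to 22.3%.

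Glutathione S-transferases, which join electrophiles to glutathione, had 0 of 15 genes past the threshold in limma and in edgeR. At an unadjusted p under 0.05 there were 9 higher and 1 lower (12.7% and 10.7% of all genes), DESeq2 called 6, all higher (6.71%), and the block gave 8 higher and 1 lower (9.33% and 6.56%). The alpha class had the widest differences. Gsta2 was at 7.86, 0 and 8.40 in siNTC replicates 1, 2 and 3 and 63.8, 76.4 and 25.7 in the siMnt libraries, which gives a log2 fold change of 3.55 ± 0.88 that depends on the added 1 because its siNTC libraries were at or near 0 (3.23 in edgeR; adjusted p = 0.0654, 0.0204 with the block). It shares 64.2% of its 50-base words with other genes, mainly Gsta1, which was at 86.5, 69.8 and 25.8 against 97.3, 104 and 78.4 and overlapped. Gsta3 was at 6.99, 21 and 50.4 in siNTC replicates 1, 2 and 3 and 124, 121 and 100.5 in the siMnt libraries, with a log2 fold change of 2.47 ± 0.59 (adjusted p = 0.0604, 0.0135 with the block). Gsta4, which detoxifies the lipid aldehyde 4-hydroxynonenal, was at 825, 853 and 1505 against 1935, 2067 and 1912, with siNTC replicate 3 nearest the siMnt libraries (adjusted p = 0.0573, 0.0127 with the block).

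All 6 mu-class genes, which lie side by side in the genome, had log2 fold changes above 0, from 0.21 (Gstm5) to 1.33 (Gstm3). Gstm2 was at 1768, 2924 and 4437 against 4876, 5361 and 5299.9, without overlap (adjusted p = 0.126, 0.022 with the block), and Gstm1 at 1546, 2294 and 3649.9 against 3638, 4368 and 4432, where siNTC replicate 3 exceeded the lowest siMnt library (adjusted p = 0.132, 0.0164 with the block). Gstm6 and Gstm7 passed with the block (0.0117 and 0.0135) and not without it (0.0521 and 0.0752). Gsto1, a thiol transferase that also reduces dehydroascorbate, was at 8610.1, 10892 and 7934 against 12922, 14769.9 and 11499, without overlap (log2 fold change 0.52 ± 0.16, adjusted p = 0.104, 0.0186 with the block). Gstk1, the kappa-class enzyme of mitochondria and peroxisomes, went the other way at 179, 139.6 and 136 against 102, 60.9 and 110.3 (log2 fold change -0.77 ± 0.27, adjusted p = 0.142, 0.0482 with the block). The pi-class Gstp1, the tyrosine-breakdown enzyme Gstz1 and Gsto2 had log2 fold changes of -0.07, 0.03 and 0.30 with overlapping groups, and Gstp1 shares 62.3% of its 50-base words with other genes.

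Of the sulfotransferases, which transfer sulfate from PAPS to phenols, amines and steroids, Sult1c2 rose. It was at 331, 535 and 1023 in siNTC replicates 1, 2 and 3 and 1818, 2147 and 1670.2 in the siMnt libraries, with no overlap and siNTC replicate 3 highest of the siNTC libraries (log2 fold change 1.72 ± 0.36, adjusted p = 0.0432). The catecholamine and phenol sulfotransferases Sult1d1 and Sult1a1 were at 5.24, 25.5 and 54.9 against 68.1, 93.1 and 87 and at 0.873, 9.97 and 48.5 against 32.4, 50.1 and 63.7, and neither passed without the block (adjusted p = 0.143 and 0.231, 0.0257 and 0.0411 with it). In both, siNTC replicate 1 was far below siNTC replicate 3, and in Sult1a1 the groups overlapped. Sult2b1, the cholesterol sulfotransferase, was at 291, 351 and 388 against 348, 390.2 and 441, with overlap (log2 fold change 0.20 ± 0.17, adjusted p = 0.518), as was Sult1b1 at 3.49, 16.6 and 30.4 against 31.4, 19.1 and 15.9 (adjusted p = 0.572).

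**Figure D4:**
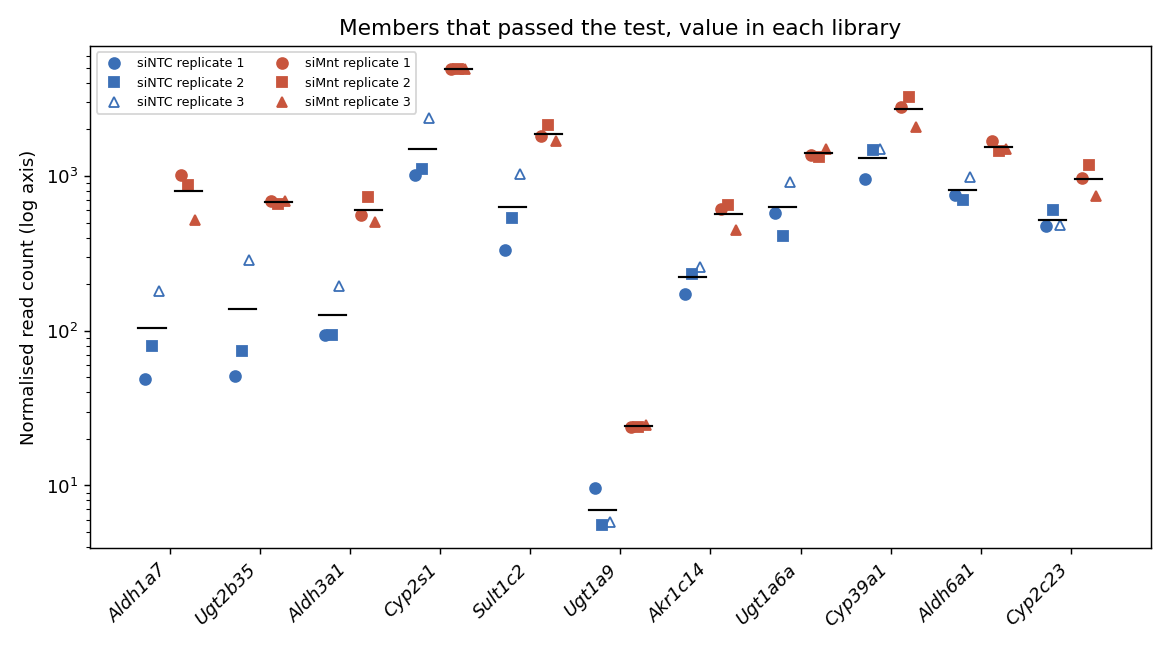
Normalised reads on a log axis in each of the 6 libraries for the 11 members that rose, with a line at each group's mean. For each gene the siMnt points lie above the siNTC points, and siNTC replicate 3 is the highest siNTC library in 9 of the 11.

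Several calls were near the threshold. Of the 9 members that passed in edgeR, 8 were shared with limma. Sult1c2, Ugt1a6a and Ugt2b35 had edgeR adjusted p of 0.0567, 0.0554 and 0.0672, and Aldh5a1 passed in edgeR but not in limma without the block. Ugt1a9, Gsta2 and Ugt2b1 met the mean of 10 through siMnt only, and Cyp4f18 and Ugt1a5 through siNTC only. Among members with a siNTC mean of at least 10, 10 of 75 passed, each of them higher.

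Per kilobase of longest transcript, the scale on which genes can be compared, Gsto1 was the most abundant member, at 7737 normalised reads per kb in siNTC and 11052 in siMnt. It was followed in siNTC by Akr1a1 (4839 per kb), Gstm2 (2859.9), Gstp1 (2529) and Gstm1 (1937). Below Akr1a1 the order of these means was not that of each siNTC library. In siNTC replicates 1 and 2 Gstp1 (2334 and 2919.6) was above Gstm2 (1661 and 2748), and Gstm1 (1199 and 1779.6) was below Akr1c13 (1608 and 2087) and Aldh18a1 (1283 and 2374). In siMnt the order after Gsto1, the same in all 3 libraries, was Gstm2 (4868 per kb), Akr1a1 (4465), Gstm1 (3217) and Gstp1 (2405). None of these 5 genes passed in limma.

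Members that are neighbours in RefSeq gene order were also set side by side. In the run of Ugt2b34, Ugt2b1, Ugt2b35, Ugt2b36, Ugt2b5, Sult1b1 and Sult1d1 all 7 log2 fold changes were above 0, 1 passed, and 4 did with the block. In the Gsta4, Gsta1 and Gsta2 run all 3 were above 0 and 0 passed, or 2 with the block. The Cyp4f17, Cyp4f16 and Cyp4f13 run lay between 0.05 and 0.23, and the run of Cyp2c55, Cyp2c65, Cyp2c68 and Aldh18a1 had 2 values above 0 and 2 below. Of these, Cyp2c68 (0.873, 6.65 and 47.2 against 7.57, 10.7 and 29.4) had a fitted value of 0.72 although its siMnt mean, 15.9, was below its siNTC mean, 18.2, and edgeR gave -0.29. Cyp2c68 shares 43.3% of its 50-base words with other genes, Cyp4f16 26.5% and Cyp2c65 20.6%. The Ugt1a locus had 4 of 7 above 0.

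At the mean limit, Ugt1a5 (10.05) and Ugt2b1 (10.2) were just inside and Gstp2 (8.99) and Ugt8a (8.11) just outside. Of the 24 rows below it, Akr1c20 was at 0, 0 and 0.646 against 13, 7.16 and 2.45 and Cyp2c70 at 0, 0 and 0 against 5.41, 4.77 and 1.23, both without overlap, and neither passed when all rows were fitted. Cyp7a1, the rate-limiting enzyme of bile acid synthesis, was at 8.73, 3.32 and 5.17 against 4.32, 4.77 and 2.45. The retinaldehyde dehydrogenase Aldh1a1, which was left out by name, was at 150.2, 261 and 503 against 3781, 3299 and 1952, and the sterol demethylase Cyp51, also left out, at 12844, 13147 and 15836 against 16923, 14575 and 17991.

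Genes that work beside these families were counted on 7 lists. Of all tested genes, 2.56% were higher and 1.37% lower in limma, 2.29% and 1.25% in edgeR, and 6.71% and 4.89% in DESeq2. With the block these shares were 9.33% and 6.56%, and at an unadjusted p under 0.05 they were 12.7% and 10.7%. On each list 0 genes fell in limma and in edgeR. At an unadjusted p under 0.05 and in DESeq2, 0 to 2 a list were lower. With 1 library other than siNTC replicate 3 left out, limma called 0 to 2 genes a list higher, beside 0 to 1.11% of all genes. On the glutathione and regulator lists it called 0 each time. Of 26 tested other phase I genes, Nqo1 and Hsd11b1 rose. In edgeR 1 of the 26 was higher. The quinone reductase Nqo1 was at 179.9, 204 and 254 in siNTC replicates 1, 2 and 3 and 808, 944 and 596 in the siMnt libraries, without overlap (log2 fold change 1.86 ± 0.21, adjusted p = 0.0155), and Hsd11b1, which regenerates active glucocorticoid, at 503, 925 and 1145 against 2069.5, 2719 and 1733 (log2 fold change 1.40 ± 0.30, adjusted p = 0.0473). With the block 8 passed, all higher, among them the flavin monooxygenase Fmo1 (122, 104 and 525 against 882, 786 and 1181) with adjusted p = 0.00438, or 0.0588 without it. The most read, the retinol-oxidising Adh7, was at 5388, 7428 and 5603 against 7527, 10447 and 7008 with overlap (adjusted p = 0.219, 0.03 with the block).

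The electron donors that P450s depend on had 0 of 7 past the threshold in limma, edgeR, DESeq2 and the blocked fit, and 0 at an unadjusted p under 0.05. Their most read gene was the outer mitochondrial Cyb5b (12422, 10439.6 and 12204 against 14642, 12813 and 12939). Other phase II transferases had 0 of 9 in limma and edgeR, 4 at an unadjusted p under 0.05 and 2 in DESeq2, both lower, and 3 higher and 2 lower with the block. The most read was the microsomal Mgst1 (2283, 3425 and 3724 against 3897, 4305 and 3986), and Nnmt, the nicotinamide methyltransferase, was at 51.5, 141 and 75.6 against 7.57, 28.6 and 24.5 (adjusted p = 0.0684, 0.00509 with the block). The 7 genes that supply UDP-glucuronate and PAPS had 0 calls in limma and edgeR, 4 at an unadjusted p under 0.05, 3 in DESeq2 and 2 with the block, with Ugdh (10339, 8671 and 11021 against 11961, 12870.2 and 11416) the most read.

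Of 17 genes of glutathione synthesis and recycling, glutathione synthetase, Gss, rose, at 1099.6, 1228 and 1536 against 2503, 2470.0 and 2072 (log2 fold change 0.88 ± 0.15, adjusted p = 0.0304), and no other passed. With the block 2 were higher and 4 lower (11.8% and 23.5%, beside 9.33% and 6.56% of all genes). The most read was the glutathione reductase Gsr, 8160.3, 5265 and 9872 against 11154, 10009 and 10140.2, where siNTC replicate 2 was lowest (adjusted p = 0.239). Of 18 transporters the drug efflux pumps Abcb1b and Abcb1a rose, at 2195, 2259 and 2285 against 4008, 3869.7 and 3674 and 942, 1252 and 908 against 2484, 2369.8 and 1573 (log2 fold changes 0.78 ± 0.10 and 1.04 ± 0.21, adjusted p = 0.0167 and 0.0397). With the block 5 were higher and 1 lower, and the most read was the prostaglandin carrier Slco2a1 (14828, 14587 and 16539.6 against 19056, 19754 and 16483). Of 27 regulators the coactivator Ppargc1a rose, at 96.9, 105 and 163 against 339.5, 515 and 252, by a log2 fold change of 1.57 ± 0.30 (adjusted p = 0.0368). Under the block 2 regulators were higher and 1 lower (7.41% and 3.7%), both shares below those of all genes (9.33% and 6.56%). Nfe2l2, which encodes Nrf2, was at 3329, 4396 and 3906 against 4228, 4188 and 4256 with overlap (adjusted p = 0.57), and the most read, Nfe2l1, at 8441, 10456 and 8268 against 7412, 9208 and 7470.0. Nr1i2 and Nr1i3, which encode Pxr and Car, were below the mean limit, at 6.99, 6.65 and 1.94 against 3.24, 8.35 and 3.68 and at 0.873, 1.11 and 4.52 against 8.65, 13.1 and 7.35.

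**Figure D5:**
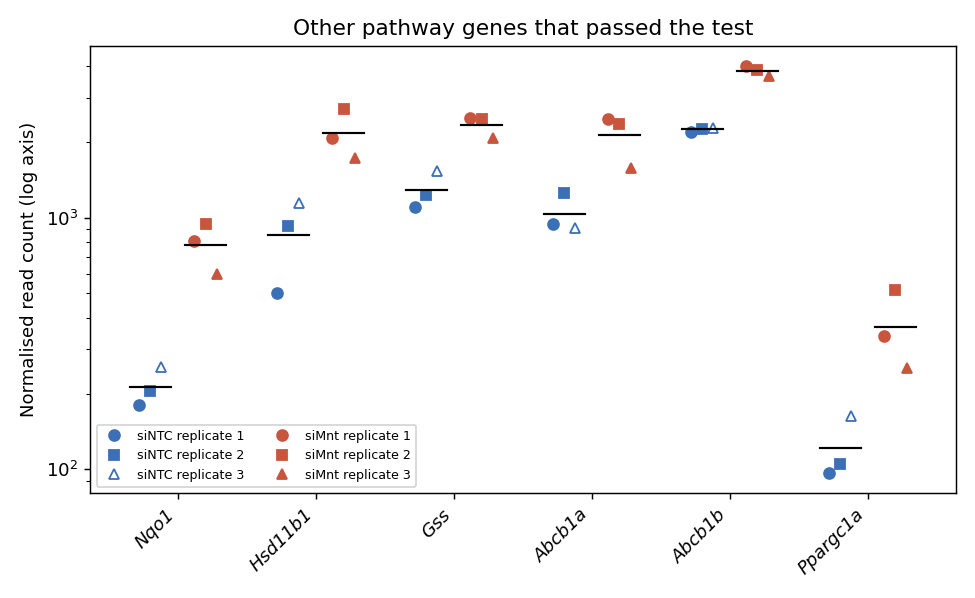
Normalised reads on a log axis in each of the 6 libraries for the 6 genes of the pathway lists that rose, with a line at each group's mean. In all 6 the siMnt points lie above the siNTC points, with the closest siNTC points in Abcb1b (2195 to 2285).

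Markers of other cell types that express many of these enzymes were read in the same libraries. The shares of all genes given for the pathway lists hold beside these counts as well. Of 8 hepatocyte markers 6 were in the table and 3 were tested. The 6 summed to between 1659 and 7174 in the siNTC libraries and between 9146 and 12906 in the siMnt libraries, mostly through Apob (1602, 994 and 4929 against 10925, 6991 and 8270.2) and Serpina1a (228, 558 and 2191 against 1897, 2012 and 2303), neither of which passed in limma (adjusted p = 0.061 and 0.192, 0.00751 and 0.0343 with the block). The listed markers Ttr, Apoa1 and Apoa2 stayed at or below 20.8. All 3 tested hepatocyte markers had log2 fold changes above 0, from 0.61 to 2.11, and 2 were higher in the blocked fit. The endoderm epithelium markers Cdx2, Vil1 and Foxa2 were present in all libraries. Their list summed to between 3558 and 5009 in siNTC and between 4818 and 5464 in siMnt, and 0 of 3 tested genes passed in limma, edgeR or DESeq2, with 1 at an unadjusted p under 0.05 and 1 with the block. Of 4 tested leukocyte markers Csf1r and Itgam rose, at 757, 881 and 1196 against 2074, 1995 and 1856 and at 5.24, 4.43 and 8.40 against 28.1, 17.9 and 25.7, while Cd68 (-0.19 on the log2 scale, adjusted p = 0.765) and Cd14 (-0.15, adjusted p = 0.531) did not pass, and the pan-leukocyte Ptprc was at or below 6.65 in each library. The list summed to between 2201 and 2809 in siNTC and between 3383 and 3481 in siMnt. Of 2 tested adipocyte markers Fabp4 rose, at 6.11, 13.3 and 7.75 against 68.1, 71.6 and 46.6, and Cidec did not pass (adjusted p = 0.778). Fabp4 and Itgam met the mean limit for testing through siMnt only, the group in which they were higher. Of 3 tested basal or myoepithelial markers 0 passed in limma or edgeR, 1 was lower at an unadjusted p under 0.05, in DESeq2 and with the block (Krt17, 28.8, 39.9 and 2.58 against 1.08, 1.19 and 0), and the list summed to 214, 383 and 61.4 against 95.1, 101 and 84.6. In limma 0 of 4 fibroblast, 0 of 2 endothelial and 0 of 4 luminal markers passed. In the blocked fit 1 of each did: Pdgfrb (147, 119 and 109.8 against 318, 196 and 189.9) and Cdh1 (6495, 5813 and 10319.9 against 11109, 9742 and 10867) were higher and Cdh5 (96.1, 80.9 and 63.3 against 41.1, 32.2 and 47.8) was lower (adjusted p = 0.0147, 0.0474 and 0.0435). The part of other cell types or cell states in the enzyme values was not tested.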

How the data were processed

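RNA-seq of 6 libraries (3 siNTC, 3 siMnt) was taken from a table that the authors deposited as normalised signal per gene: read counts divided by 1 size factor per library. Reads were aligned to mm9 with TopHat2 2.1.0 and normalised with DESeq or DESeq2, per the submitters' processing notes. The counting tool, annotation, strand setting and treatment of multiply mapped reads are not stated in the sources used here. Whole reads were recovered from the steps between values (99.7% of non-zero values whole within 0.05 of a read).

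Values were analysed as log2(value + 1) for the 12568 genes with a mean of at least 10 over the 6 libraries (1958 left out), with limma 3.58.1 (trend, no block) and Benjamini-Hochberg adjustment over all of them, at 0.05. For low genes a fold change on this scale depends on the added 1 and can lie above or below the log2 ratio of the group means. edgeR 4.0.16 (quasi-likelihood) and DESeq2 1.42.0 were run on the recovered reads as alternatives. Further alternatives were other pseudocounts, filters and scalings, sample weights, a threshold of 0.10, each library left out, the replicate number as a block and, chosen after seeing the data, a correction for GC content and length. Scripts were tested on simulated data. Sharing between genes is the percent of 50-base words of the longest GENCODE M21 transcript that occur in another gene.

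Deviations from group means correlated at 0.28, 0.50 and 0.35 between libraries with the same replicate number and at -0.38 to 0.03 between others. Within a group the deviations cancel out, so these correlations are not independent of each other, and they were not tested. Whether the numbers pair the samples is therefore not settled, and the labels do not say what a number marks. Blocked values are printed where they change a call or a count.

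The members and lists were chosen with earlier results of these data known. Genes were named by rule: Mnt, all passing members, the 2 most read of each family, the 3 largest rises and falls among non-passing members whose higher group averaged at least 50, and, of each pathway list, up to 4 passing genes and the most read one. Other genes were named after their values were seen. Promoter windows came from RefSeq (GRCm38.p6), and no mm9 coordinates were used.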

Additional observations from a re-analysis of the deposited data

How the results depend on the processing

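Among all 12568 genes, 494 passed in either direction, against 445 in edgeR, 1457 in DESeq2, 1998 with the replicate block, 997 with the GC and length correction, 2328 with both of the latter, 4409 with sample weights, 322 at a mean of at least 50, 306 without a trend, 1336 at a threshold of 0.10, and 0 to 2012 with 1 library left out. Members higher, 11 as reported, numbered 23 in DESeq2, 31 with the replicate block, 29 with the block and the GC and length correction, 44 with sample weights, 7 at a mean of at least 50, 22 at a threshold of 0.10, and 0 to 35 with 1 library left out. Members lower, 0 as reported, numbered 2 in DESeq2, 4 with the replicate block, 4 with the block and the correction, 6 with sample weights, 1 without a trend, 2 at a threshold of 0.10, and 0 to 2 with 1 library left out. The members' median log2 fold change was 0.67 as reported, 0.45 in edgeR, 0.46 in DESeq2 and 0.43 after quantile normalisation. It was 0.30 over the fewer members with a mean of at least 50, and 0.26 to 0.66 with 1 library left out, lowest without siNTC replicate 1. Aldh18a1 changed sign without siNTC replicate 2, to a log2 fold change of 0.081, and lay between -0.42 and 0.081 with 1 library left out. The cause of these differences was not tested. The replicate block changed no call of a member, pathway or marker gene beyond those named or counted above. Limits are the 3 libraries a group and the spread among the siNTC libraries. Replicate 3 lay apart from the other siNTC libraries along the first principal component, and replicate 2 had the lowest sample weight (0.20). Other limits are adjusted p near 0.05 for several of the 11 and low reads for Ugt1a9 (5 to 22 a library) and Gsta2. Sequence is also shared with other genes by members among the Ugt1a, Ugt2b, Gst, Akr1c, Cyp2c, Cyp4a, Cyp4f and Aldh genes and by Cyp21a1.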
